A study of Homo sapiens with 12 samples.

Results

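The genes described here encode the dual-specificity phosphatases (DUSPs) that switch off MAP kinases. They were taken by name from a list of the family's MAP kinase phosphatases (DUSP1, DUSP2, DUSP4, DUSP5, DUSP6, DUSP7, DUSP8, DUSP9, DUSP10 and DUSP16), and all 10 were found, each once, among the 20263 genes of the deposited table. RNA was sequenced from A375 cells, an established human melanoma line labelled as wild type, in 4 groups of 3 libraries. Ctrl cells received neither agent, DdBIC cells received the compound DdBIC (written DBIC in the labels), Hemin cells received hemin, the oxidised form of heme, and DdBIC+Hemin cells received both. The study set out to learn how DdBIC causes pyroptosis, a lytic form of cell death, in the light of its inhibition by hemin. The study's methods state for DdBIC treatment in general that the serum in the medium was lowered. Dose and time for these RNA-seq cultures are not given in the sources used here.

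MAP kinases (ERK, JNK and p38) are activated when a kinase adds phosphate to a threonine and a tyrosine of their activation loop, and DUSPs remove phosphate from both residues. Nuclear DUSPs are mostly products of early response genes that growth factors and stress induce, a cytoplasmic class acts mainly on ERK, and another class acts mainly on JNK and p38. In melanoma cells with active BRAF, DUSP4 and DUSP6 are known as transcriptional outputs of ERK signalling that feed back on it.

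The 12 libraries held 37951275 to 44358912 counts, and 3 counts, the limit that a count of 0 allows, correspond to at most 0.0790 CPM (counts scaled to a common library size). HMOX1 encodes an oxygenase that breaks down heme and is induced by it. It had mean CPM of 8.71 in Ctrl, 7.82 in DdBIC, 63.2 in Hemin and 169 in DdBIC+Hemin, and so followed the hemin labels. Of 10 melanocyte lineage markers, 5 (SOX10, MITF, S100B, CSPG4 and PAX3) reached a mean of 1 CPM in every group. PMEL, MLANA, DCT, TYRP1 and the pigmentation gene TYR stayed below it in every group. TYR was at 0 in all DdBIC and all Hemin libraries and near 0 in Ctrl (mean 0.0171 CPM) and DdBIC+Hemin (0.0152). The summed level of this list was 1288 to 1322 CPM in Ctrl, 1380.0 to 1467 in DdBIC, 1166 to 1191 in Hemin and 1276 to 1424 in DdBIC+Hemin. Most of it was SOX10 (mean 634 CPM in Ctrl, 741 in DdBIC, 549 in Hemin and 596 in DdBIC+Hemin) and CSPG4 (632, 642, 589 and 711). Fibroblast markers summed to 22.5 to 23.7 CPM in DdBIC and 25.7 to 29.5 CPM in the other groups, without overlap, with 4 of 6 at a mean of 1 CPM or more in every group. Keratinocyte markers (2 of 6 at that level) summed to 59.0 to 66.1 CPM in DdBIC against 53.1 to 56.4 in Ctrl. Most of this sum was KRT10 (mean 58.7 CPM in DdBIC and 51.2 in Ctrl). Immune markers (2 of 7, or 3 in DdBIC) summed to 23.7 to 29.1 CPM against 29.6 to 30.5, with PTPRC at 0 in every library. CD68 made up most of the immune sum (mean 23.8 CPM in DdBIC and 27.3 in Ctrl). With hemin the keratinocyte and immune lists gave 50.1 to 62.4 and 27.6 to 32.5 CPM. Endothelial markers (4.86 to 7.35 CPM) overlapped between all groups. Mitochondrial genes held 2.50%, 2.99% and 2.42% of the counts in the DdBIC libraries, 2.90% to 3.10% in Ctrl and 3.08% to 3.43% in the groups with hemin. DdBIC replicate 2, the high one of its group, thus lay within the Ctrl range. The part of these marker and mitochondrial differences in the results was not tested. The labels do not say that the libraries of a group came from separate cultures, so p-values measure only the spread between these libraries.

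As a family, the MAP kinase phosphatases were higher in DdBIC-treated cells. Their summed level in deposited TPM (transcript abundance scaled for gene length and depth) was 393 ± 18.0 (SD, n = 3) in Ctrl, 1015 ± 34.5 in DdBIC, 389 ± 4.95 in Hemin and 426 ± 1.73 in DdBIC+Hemin. The DdBIC libraries (993 to 1055 TPM) lay apart from all the others, none of which exceeded 427 TPM. In Ctrl cells the order of levels was DUSP6 (135 TPM), DUSP4 (102), DUSP7 (73.0), DUSP5 (37.2), DUSP10 (12.8), DUSP1 (11.5), DUSP16 (8.83), DUSP9 (5.92), DUSP2 (5.16) and DUSP8 (0.773). Neighbours in this order did not overlap between libraries except DUSP9 and DUSP2. With DdBIC, DUSP5 (191 TPM) stood above DUSP4 (140 TPM), and DUSP1 (99.4), DUSP10 (95.9) and DUSP7 (95.3) overlapped with each other. DUSP6, DUSP4 and DUSP7 made up 34.4%, 26.1% and 18.6% of the summed TPM in Ctrl and 30.7%, 13.8% and 9.40% in DdBIC, a description with no test. The shares of DUSP5 (9.47% and 18.8%), DUSP1 (2.94% and 9.78%) and DUSP10 (3.27% and 9.46%) were higher in DdBIC than in Ctrl.

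**Figure D1:**
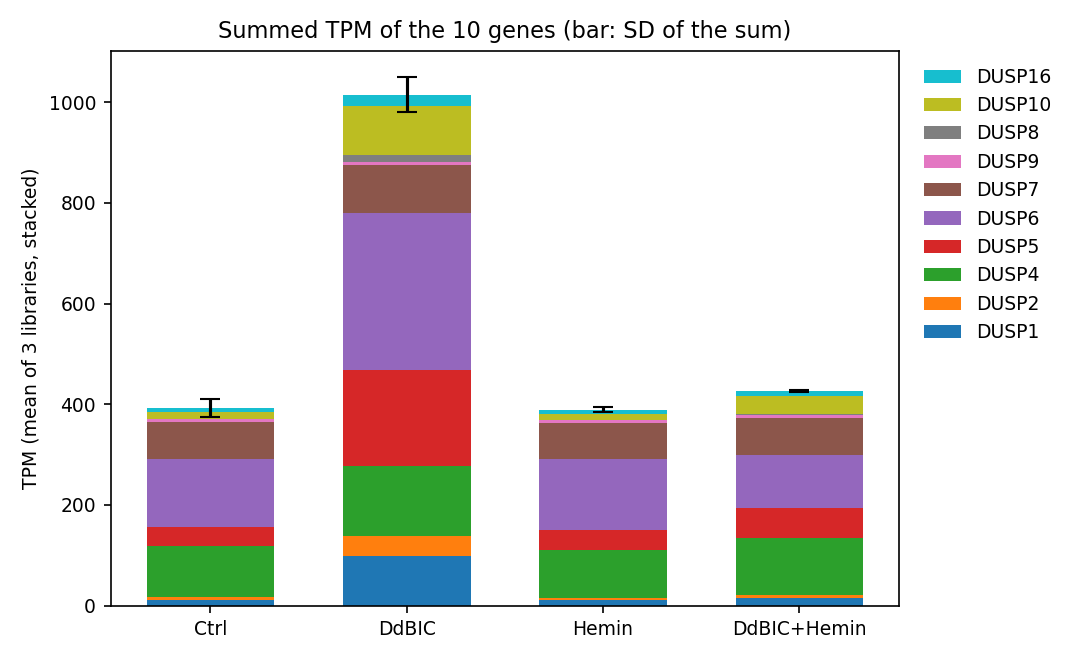
Summed TPM of the 10 MAP kinase phosphatase genes (vertical axis) in the 4 groups, with each gene's mean of 3 libraries as a stacked segment and the SD of the sum as the error bar. The DdBIC bar stands at 1015 TPM and the other bars at 389 to 426 TPM.

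The comparison of DdBIC with Ctrl asks what the compound does to these genes. All 10 genes passed the filter on low counts, and 9 rose in DdBIC by edgeR's quasi-likelihood test (adjusted p under 0.05 over the 14287 genes tested), none fell (nor at an unadjusted p under 0.05, nor by DESeq2), and DUSP9 did not pass. Of all genes tested, 20.0% were called higher. The median log2 fold change was 1.94 over the 10 genes and -0.01 over all genes. For the 9 genes every DdBIC library lay above every Ctrl library, as was the case for 25.9% of all genes tested. In bulk RNA, more message per cell and a larger share of cells with the message cannot be told apart. The rise ranged from 1.30-fold for DUSP7 to 19.0-fold for DUSP8, and DUSP8, DUSP1, DUSP2, DUSP10 and DUSP5 ranked 31, 56, 68, 69 and 102 of 14287 genes ordered from the highest log2 fold change.

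Promoter windows from RefSeq (GRCh38.p14) were matched for 8 of the 10 genes, all but DUSP4 and DUSP5, in the table used here. Each window ran from 250 bases before a start site to 50 after it, and both strands were searched. The cAMP response element (CRE) TGACGTCA was found in DUSP1, where its first base lies at -125 from the start, and in DUSP8, at -118 and -74, and in 1.85% of 35116 promoters of this length. Its shorter core TGACG, which the CRE contains on each strand, was found in DUSP1 and DUSP8 (4 matches each, those within the CREs included), at -4 from the downstream start of DUSP10, and in 24.6% of promoters. An EGR motif, GCGNGGGCG, was found in DUSP2 (first bases -103 and -93) and DUSP16 (-111), and in 9.43% of promoters. An antioxidant response element, TGACNNNGC, which can overlap the CRE core, was found in DUSP1 and at the downstream start of DUSP10, and in 13.3% of promoters. The AP-1 motif TGANTCA (7.71%), the C/EBP-ATF response element TGATGNAA (3.62%) and the CArG box (1.29%) had no match in the 8 genes, and the NF-kB site (5.91%) had a match in DUSP9 alone. The 250 bases before the start follow for the genes that hold a CRE or the paired EGR motifs and, beside them, for DUSP9, the gene that did not pass the test. All are printed 5′ to 3′ on the gene's strand, with CRE cores and EGR motifs of either strand in capitals.
DUSP1 (chr5:172771196-172771445, minus strand): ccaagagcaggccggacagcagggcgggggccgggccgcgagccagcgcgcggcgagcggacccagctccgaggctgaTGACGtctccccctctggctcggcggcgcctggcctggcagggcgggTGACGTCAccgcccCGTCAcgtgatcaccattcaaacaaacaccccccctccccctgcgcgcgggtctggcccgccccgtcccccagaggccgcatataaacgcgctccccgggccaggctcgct
DUSP8 (chr11:1572272-1572521, minus strand): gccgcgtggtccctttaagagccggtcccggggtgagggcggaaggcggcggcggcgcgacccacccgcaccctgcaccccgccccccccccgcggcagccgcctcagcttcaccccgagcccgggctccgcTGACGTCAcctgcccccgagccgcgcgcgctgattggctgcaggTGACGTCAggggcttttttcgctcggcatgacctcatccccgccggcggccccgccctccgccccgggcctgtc
DUSP2 (chr2:96145441-96145690, minus strand): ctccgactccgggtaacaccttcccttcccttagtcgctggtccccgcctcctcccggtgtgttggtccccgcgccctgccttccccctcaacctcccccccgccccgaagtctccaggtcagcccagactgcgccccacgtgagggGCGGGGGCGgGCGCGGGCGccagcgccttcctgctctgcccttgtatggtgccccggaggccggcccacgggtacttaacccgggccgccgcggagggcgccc
DUSP9 (chrX:153642191-153642440, plus strand, the upstream of 2 start sites): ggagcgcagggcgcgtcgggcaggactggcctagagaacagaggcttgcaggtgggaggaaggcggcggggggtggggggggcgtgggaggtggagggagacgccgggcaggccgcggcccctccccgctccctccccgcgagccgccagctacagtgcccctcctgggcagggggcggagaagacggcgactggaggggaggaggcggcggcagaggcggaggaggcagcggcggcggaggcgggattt
A match describes the letters in the window only, and no binding was measured in these cells.

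The JNK- and p38-directed class held the largest rise. DUSP8 (ENSG00000184545; chromosome 11, 1554044 to 1571920, minus strand, hg38), a phosphatase best known from brain and heart, was the lowest of the 10 per length in Ctrl, with 1.94, 1.74 and 1.38 CPM from 78, 69 and 54 counts. It had 35.7, 31.0 and 29.5 CPM in the DdBIC libraries, and no DdBIC library came near the Ctrl range. The log2 fold change was 4.25 (SE 0.17, adjusted p = 1.5e-08), the largest of the 10 genes. DUSP10 (ENSG00000143507; chromosome 1, 221701424 to 221742176, minus strand) inactivates JNK and p38 in stress and immune responses. It had 14.2, 16.2 and 13.9 CPM in Ctrl and 120, 106 and 103 CPM in DdBIC, a log2 fold change of 2.89 (SE 0.10, adjusted p = 4.93e-09). Its replicates were tight in both groups. DUSP16 (ENSG00000111266; chromosome 12, 12474210 to 12562383, minus strand), a JNK phosphatase that shuttles between nucleus and cytoplasm, had 17.5, 18.8 and 18.5 CPM in Ctrl and 54.3, 50.7 and 51.6 CPM in DdBIC (log2 fold change 1.51, SE 0.08, adjusted p = 8.06e-08). The 3 genes therefore rose 19.0-fold, 7.43-fold and 2.86-fold.

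The inducible nuclear class rose in full, DUSP4 by the least. DUSP1 (ENSG00000120129; chromosome 5, 172768090 to 172771195, minus strand) is the prototype early response phosphatase and acts on p38, JNK and ERK. It had 10.6, 11.8 and 11.3 CPM in Ctrl and 104, 84.4 and 102 CPM in DdBIC, so every treated library stood far above the controls. The log2 fold change was 3.10 (SE 0.08, adjusted p = 5.11e-10), or 8.60-fold. DUSP2 (ENSG00000158050; chromosome 2, 96143166 to 96145440, minus strand), known from activated lymphocytes, had 5.09, 3.07 and 4.43 CPM in Ctrl and 35.8, 24.0 and 33.9 CPM in DdBIC. Its log2 fold change of 2.90 had a wider error (SE 0.19, adjusted p = 7.68e-07), with DdBIC replicate 2 the lowest of the treated libraries. That replicate, whose mitochondrial share lay in the Ctrl range, was also the lowest treated library for DUSP1, DUSP5, DUSP9 and DUSP16. For DUSP4 it was the highest treated library, and for DUSP6, DUSP7, DUSP8 and DUSP10 it was not the lowest. Without it the log2 fold change was 3.19 for DUSP1, 3.05 for DUSP2 and 2.41 for DUSP5, each larger than with it. Leaving out the lowest treated library raises a fold change by construction. For DUSP4 (0.44) and DUSP6 (1.32) the value without replicate 2 was smaller. The part of its mitochondrial share was not tested. DUSP5 (ENSG00000138166; chromosome 10, 110497838 to 110511544, plus strand), a nuclear phosphatase selective for ERK, had 45.7, 46.8 and 44.7 CPM in Ctrl and 246, 216 and 241 CPM in DdBIC (log2 fold change 2.36, SE 0.05, adjusted p = 1.65e-10). DUSP4 (ENSG00000120875; chromosome 8, 29333064 to 29350668, minus strand) was already abundant in Ctrl, with 266, 275 and 274 CPM. In DdBIC it had 373, 376 and 365 CPM, a rise of 1.37-fold (log2 fold change 0.45, SE 0.02, adjusted p = 1.03e-07). Replicates of DUSP4 differed by so little that this small difference lay well outside their spread.

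The cytoplasmic ERK-directed class was mixed. DUSP6 (ENSG00000139318; chromosome 12, 89347232 to 89353271, minus strand), the ERK-selective feedback phosphatase, had 151, 152 and 218 CPM in Ctrl and 358, 500 and 508 CPM in DdBIC. The groups did not overlap, but single libraries stood apart within each (Ctrl replicate 3 high, DdBIC replicate 1 low), and the log2 fold change of 1.39 carried an SE of 0.19 (adjusted p = 0.000447). Leaving out 1 library at a time gave 1.30 to 1.58. The ratio of counts to TPM of DUSP6, relative to the library median, also differed by up to 1.31-fold between libraries, against a median of 1.10-fold over all genes and 1.25-fold for DUSP16; its part in these values was not tested. DUSP7 (ENSG00000164086; chromosome 3, 52048919 to 52056550, minus strand), which acts on ERK, had 115, 120 and 116 CPM in Ctrl and 158, 153 and 147 CPM in DdBIC (log2 fold change 0.38, SE 0.04, adjusted p = 2.16e-05). DUSP9 (ENSG00000130829; chromosome X, 153642534 to 153651326, plus strand), best known from placenta and embryonic stem cells, had 6.58, 7.08 and 6.99 CPM in Ctrl and 6.28, 6.25 and 7.00 CPM in DdBIC. These libraries overlapped, and the log2 fold change of -0.08 had a 95% interval of -0.28 to 0.12 (adjusted p = 0.534). In GENCODE 29, genes on the other strand overlap DUSP1, DUSP6, DUSP8 and DUSP16. None of them is in the deposited table, and the use of strand in counting is not given in the sources used here, so reads from them cannot be told apart from those of the phosphatase genes.

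**Figure D2:**
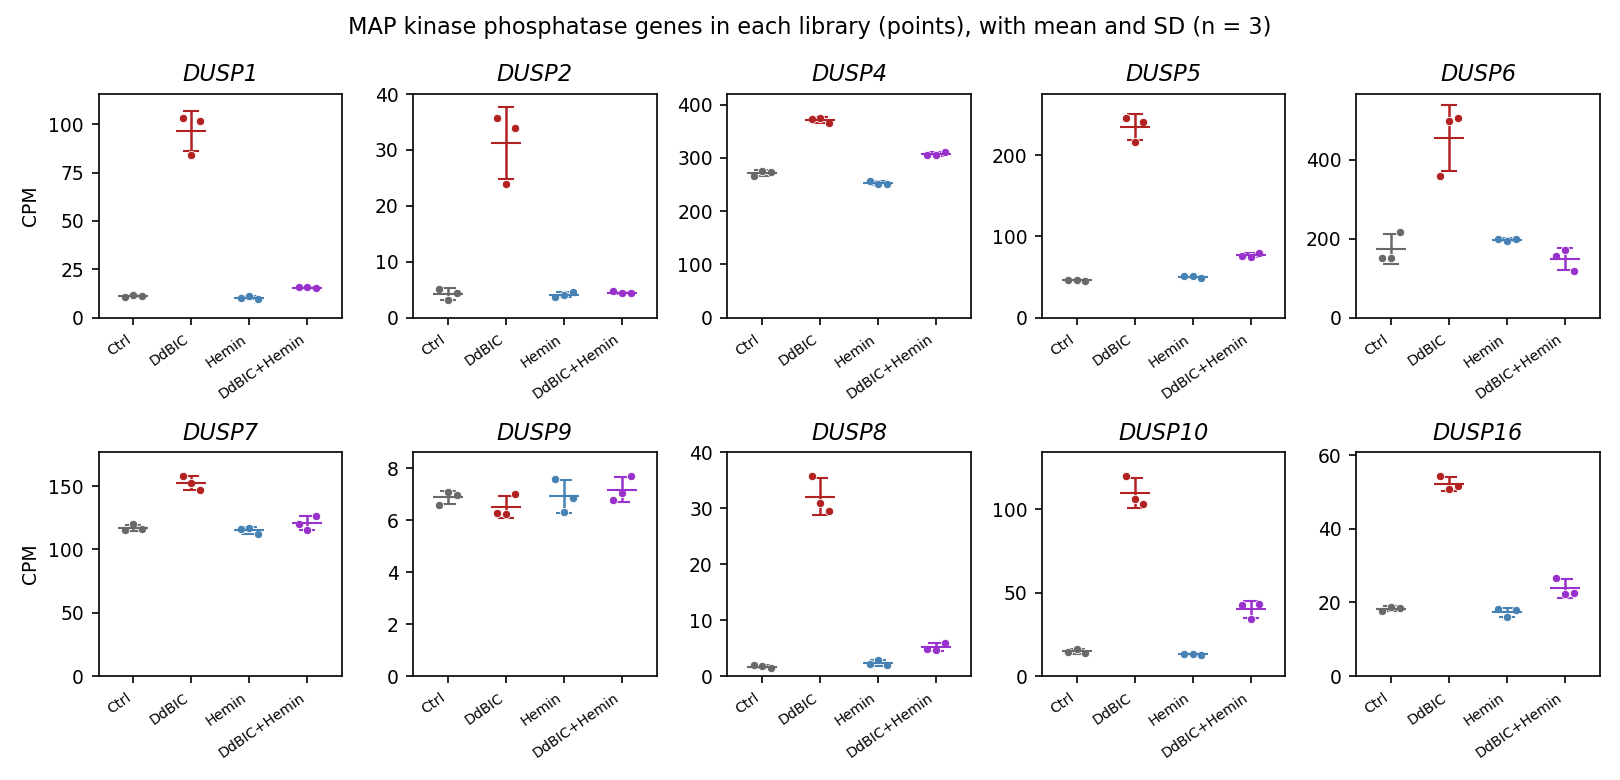
CPM of each MAP kinase phosphatase gene (linear vertical axes that start at 0, one panel per gene) in the libraries of the 4 groups, shown as points, with the mean and SD of 3 libraries as bars. DdBIC libraries stand above Ctrl, Hemin and DdBIC+Hemin libraries in every panel but that of DUSP9, where the groups overlap between 6.25 and 7.71 CPM.

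Hemin on its own left most of these genes near their Ctrl level. Of the 10 genes, 1 passed the test against Ctrl, as did 4.06% of all genes in either direction. That gene was DUSP4, with 258, 251 and 251 CPM in Hemin against 266, 275 and 274 CPM in Ctrl, a log2 fold change of -0.10 (SE 0.02, edgeR adjusted p = 0.0374). This call was lost without Ctrl replicate 2 or 3 and without any of the 3 Hemin replicates. The same held without DdBIC replicate 1 or DdBIC+Hemin replicate 1. Over all 12 fits with 1 library left out, the DUSP4 log2 fold change was -0.12 to -0.09. The call was also lost with the replicate block and with upper-quartile scaling. It was lost, too, without a filter on low counts and in a fit of Ctrl and Hemin alone. DUSP5 (log2 fold change 0.14, adjusted p = 0.146), DUSP8 (0.48, adjusted p = 0.184) and DUSP10 (-0.19, adjusted p = 0.383) also had Hemin libraries that did not overlap with Ctrl, but did not pass the test. With DUSP4 these are 4 of the 10 genes, and 25.1% of all genes had libraries that did not overlap in this comparison. For DUSP8 the 95% interval was 0.09 to 0.86 on the log2 scale, from 84, 117 and 77 counts in Hemin. The other 6 genes had log2 fold changes between -0.11 (DUSP1) and 0.18 (DUSP6).

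Adding hemin to DdBIC was associated with lower levels of the same 9 genes that DdBIC raised. Against DdBIC alone, 9 genes fell in DdBIC+Hemin and none rose, while 18.4% of all genes were called lower, and for all 9 every library with both agents lay under every DdBIC library, as was the case for 24.4% of all genes. The median log2 fold change was -1.54 over the 10 genes and -0.01 over all genes. This comparison and the one with Ctrl share the DdBIC libraries, so a high DdBIC value enters both. DUSP2 fell by 2.81 on the log2 scale (SE 0.19, edgeR adjusted p = 1.38e-06), with 4.67, 4.35 and 4.36 CPM in DdBIC+Hemin. DUSP8 fell by 2.64 (SE 0.16, adjusted p = 4.35e-07), to 4.87, 4.65 and 5.95 CPM. DUSP1 fell by 2.63 (SE 0.08, adjusted p = 3.38e-09), to 15.7, 15.7 and 15.2 CPM. In these 3 genes the libraries with both agents lay 6.21-fold to 7.00-fold below those with DdBIC alone. DUSP5 fell by 1.62 (76.0, 74.3 and 79.3 CPM), DUSP6 by 1.62 (157, 170 and 118 CPM), DUSP10 by 1.46 (42.7, 34.1 and 43.1 CPM) and DUSP16 by 1.13 (26.7, 22.2 and 22.6 CPM). The abundant DUSP7 and DUSP4 fell least, by 0.34 and 0.27, with 115 to 127 CPM and 305 to 311 CPM. DUSP9 had 6.79, 7.06 and 7.71 CPM and a log2 fold change of 0.14 that did not pass (95% interval -0.06 to 0.34, adjusted p = 0.268).

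Within hemin-treated cells DdBIC still raised part of the family. Against Hemin alone, 6 of the 10 genes were higher in DdBIC+Hemin and none lower, beside 3.71% of all genes called higher and 3.09% called lower. DUSP10 had the largest rise, from 12.9, 13.5 and 12.5 CPM in Hemin to the values above, a log2 fold change of 1.63 (SE 0.10, edgeR adjusted p = 5.16e-06), and ranked 43 of 14287 genes. DUSP8 rose by 1.14 (SE 0.16, adjusted p = 0.00187) from 2.13, 2.89 and 2.01 CPM. DUSP5 rose by 0.60 from 51.0, 51.4 and 49.1 CPM and DUSP1 by 0.58 from 10.3, 11.0 and 9.75 CPM. DUSP16 rose by 0.46 from 18.2, 15.9 and 17.8 CPM, and DUSP4 by 0.28. So the JNK- and p38-directed class rose in all its members, with or without hemin. The genes that did not pass were DUSP2 (log2 fold change 0.12, 95% interval -0.30 to 0.54), DUSP7 (0.07, interval -0.02 to 0.16), DUSP9 (0.05, interval -0.14 to 0.25) and DUSP6 (-0.41, interval -0.84 to 0.02). DUSP6 had 198, 193 and 200 CPM in Hemin, above all 3 DdBIC+Hemin libraries, yet did not pass the test (adjusted p = 0.273).

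Against Ctrl, 6 genes were also higher in DdBIC+Hemin, with 5.66% of all genes called higher. Their log2 fold changes were 1.61 for DUSP8, 1.44 for DUSP10, 0.74 for DUSP5, 0.47 for DUSP1, 0.38 for DUSP16 and 0.18 for DUSP4 (edgeR adjusted p = 4.5e-06 for DUSP5 to 0.00734 for DUSP16). DUSP2, DUSP6, DUSP7 and DUSP9 lay between -0.23 and 0.09 and did not pass. In each of these 4 genes the DdBIC+Hemin libraries overlapped with Ctrl.

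The interaction, the log2 effect of DdBIC with hemin minus that without, tests whether hemin changed the DdBIC effect. It was below 0 and passed for 9 of the 10 genes, beside 10.2% of all genes. The difference was -3.11 (SE 0.23, edgeR adjusted p = 6.7e-06) for DUSP8, -2.77 (SE 0.27) for DUSP2 and -2.52 (SE 0.11) for DUSP1. It was -1.80 for DUSP6, -1.76 for DUSP5, -1.27 for DUSP10, -1.05 for DUSP16, -0.31 for DUSP7 and -0.17 for DUSP4, and 0.13 for DUSP9, which did not pass (interval -0.15 to 0.42). For the 6 genes that passed with DdBIC both with and without hemin, the rise was also compared on the linear CPM scale. The rise with DdBIC in hemin-treated cells was 54.0% of its size without hemin for DUSP4 and 28.4% for DUSP10. It was 19.2% for DUSP16, 13.8% for DUSP5, 9.25% for DUSP8 and 6.06% for DUSP1. For DUSP7, DUSP2 and DUSP6, whose change with DdBIC in hemin-treated cells did not pass, the share was 15.9%, 1.33% and -17.4%. These shares describe means and were not tested against each other.

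**Figure D3:**
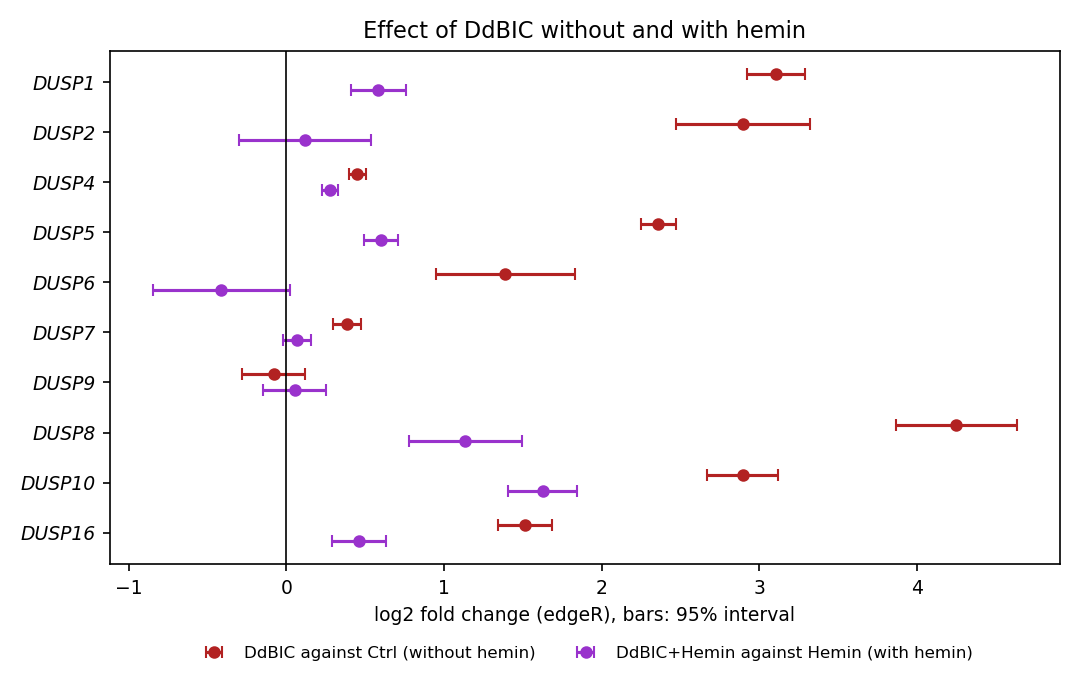
Log2 fold change for DdBIC without hemin (red, DdBIC against Ctrl) and with hemin (purple, DdBIC+Hemin against Hemin) in each gene, with 95% intervals from edgeR. The red points lie to the right of the purple ones in every gene but DUSP9, and the distance between them is largest for DUSP8 (4.25 and 1.14) and DUSP2 (2.90 and 0.12).

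Other genes were taken from lists of kinases, other phosphatases and scaffolds of the MAP kinase pathway, and of atypical DUSPs. Of 95 listed genes in 7 groups, 84 passed the filter on low counts, and DdBIC against Ctrl raised 19 and lowered 13 of them by edgeR's test, 38.1% in all beside 37.2% of all genes called in either direction, with a median log2 fold change of 0.01. A rise that passed the test with a log2 fold change of at least 1 was seen in 3 of these genes, in 7 of the 10 phosphatases and in 3.09% of all genes. Of the MAP kinases, 2 rose and 3 fell out of 12, led by MAPK15 (1.15, from 5 to 10 counts in Ctrl libraries), the ERK5 gene MAPK7 (0.40) and the ERK1 gene MAPK3 (-0.33). Of the kinases one step above, 2 rose and 1 fell out of 7. MAP2K3, which activates p38, rose by 1.04 (SE 0.07, adjusted p = 6.02e-07) from 80.3, 93.2 and 90.6 CPM to 193, 163 and 187 CPM. MAP2K7, which activates JNK, rose by 0.26, and MAP2K6, another activator of p38, fell by 0.41. Of the MAP3Ks, 6 rose and 4 fell out of 23. MAP3K8, a kinase of inflammatory ERK signalling, rose by 1.10, MAP3K14, the kinase of the noncanonical NF-kB pathway, by 0.94 and BRAF by 0.56. For MAP3K14 the DdBIC libraries ranged widely (86.7, 40.2 and 80.6 CPM), again with replicate 2 the lowest.

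Beside the counts for each list, 20.0% of all genes were called higher and 17.2% lower in DdBIC against Ctrl. Of kinases activated by MAP kinases, 2 rose and 2 fell out of 10, with RPS6KA3 at 0.56, RPS6KA2 at -0.55 and RPS6KA4 at -0.36. Phosphatases of other families that act on the pathway had 2 genes higher and 1 lower out of 8, namely PPM1D (0.51), PPM1B (0.42) and PPP5C (-0.09). The atypical DUSPs, small relatives that mostly lack the MAP kinase binding domain, had 2 genes that passed out of 12. Both were higher, DUSP14 (0.41) and DUSP11 (0.35). Scaffolds and adaptors had 3 higher and 2 lower out of 12, led by KSR1 (0.88), ARRB1 (-0.33) and PEBP1 (-0.30). The KSR1 value rests on DdBIC replicates 1 and 3 (604 and 550 counts), since replicate 2 (256 counts) lay within the Ctrl range of 227 to 263 counts, and its mean TPM was 9.23 in Ctrl and 8.94 in DdBIC. The medians of the 7 groups lay between -0.07 and 0.14, beside 1.94 for the MAP kinase phosphatases. In hemin-treated cells 7 of the 84 listed genes rose with DdBIC and 1 fell, beside 3.71% and 3.09% of all genes. Of the genes named above, these were MAP2K3 (0.31), RPS6KA3 (0.24), DUSP14 (0.24) and BRAF (0.15). Among those that did not pass were MAP3K8 (-0.01), KSR1 (0.18) and MAP3K14 (-0.72). The others that passed, named after their values were seen, were RPS6KA5 (0.38), MAPKAPK2 (0.19) and SPAG9 (0.15), which rose, and MAP3K1 (-0.22), which fell.

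**Figure D4:**
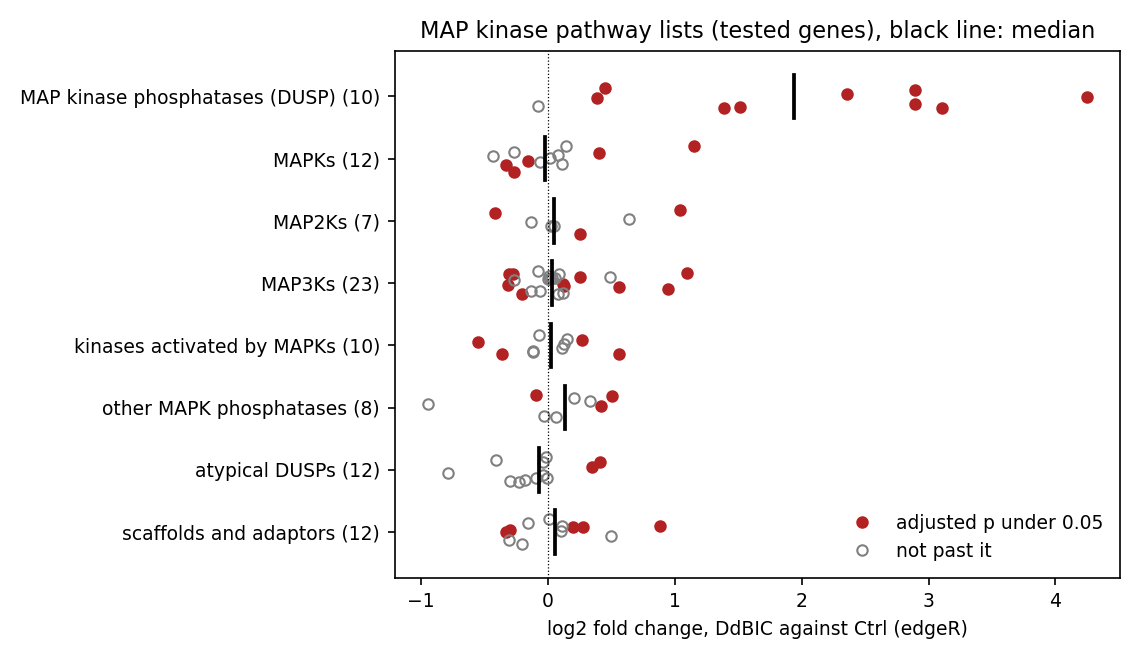
Log2 fold change in DdBIC against Ctrl for every tested gene of the MAP kinase phosphatases and of 7 pathway groups (rows, number of tested genes in brackets), filled where the adjusted p was under 0.05, with the median as a black line. The phosphatases reach 4.25 with a median of 1.94, and no gene of the other groups exceeds 1.15.

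The genes whose pattern was most like that of each phosphatase were named by Pearson's r of log2 CPM over the 12 libraries, which share the 4 group means, so r is a description of these libraries. DUSP1 was closest to the early response transcription factor genes EGR1 (0.998) and JUNB (0.997), followed by ZBTB11, TNFAIP3 and CXCL1. DUSP5 was closest to INHBA (0.999), CSRNP1, JUND, EPC1 and DNAJB9, and DUSP8 to CEBPB (0.995), PLK3, SDE2, DUSP5 (0.993) and JUN. DUSP10 was closest to KLF5 (0.994), CLCF1, IL11, SSH1 and JARID2, and DUSP16 to CXCL8 (0.994), IER3, BIRC3, CXCL3 and DNAJB9. DUSP2 was closest to SAT1 (0.991), RLIM, ZNF267, ZNF121 and USPL1, and DUSP4 to STX1A (0.993), FRMD4A, ZFP36L2, IL11 and GDNF. The leading genes for DUSP6 were SLC4A7 (0.965), MTPAP, PPP1R37, ZNF16 and S1PR1. For DUSP9 the closest gene, PTGS1, reached only 0.826. Among the phosphatases themselves r ran from 0.993 for DUSP5 with DUSP8 to -0.49 for DUSP6 with DUSP9.

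Messages of early response genes often carry the pentamer ATTTA, the core of AU-rich elements that shorten their life. In the 3′ untranslated region of 1 transcript per gene (GENCODE 29), DUSP1 held 4 copies in 672 bases (5.95 per kb) and DUSP2 held 3 in 657 bases (4.57 per kb). Of 13237 tested genes with such a region, 5.95% and 11.8% had at least that density. DUSP10 held 3.04 per kb, DUSP16 1.91, DUSP8 1.62, DUSP4 1.51, DUSP9 0.987 and DUSP6 0.495, while DUSP5 and DUSP7 held none. The median was 1.57 per kb over the 10 genes and 1.66 over all genes. DUSP5, which rose 5.13-fold, was thus without the pentamer, and message stability was not measured.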

How the data were processed

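RNA extracted with TRIzol from A375 cells was sequenced in 12 libraries, 3 in each of the groups Ctrl, DdBIC, Hemin and DdBIC+Hemin, with groups taken from the treatment labels. The authors deposited 1 table with, per gene and library, counts that were not normalized, TPM values, scaled by length and depth, and FPKM values, which were not used here. The submitters' processing notes name Trim Galore, Subread, featureCounts and hg38. Versions, annotation and strand setting are not given in the sources used here.

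The test was the quasi-likelihood test of edgeR 4.0.16, run in R 4.3.3 on the counts (low-count filter by group, TMM factors, robust quasi-likelihood fit of 1 mean per group to all 12 libraries, Benjamini-Hochberg adjustment over 14287 genes, threshold 0.05). A 95% interval comes from this fit. CPM used the TMM library sizes, and log2 CPM for correlations a prior count of 2. TPM served to compare genes with each other, since they are scaled for length, and as an alternative to CPM. At 37951275 to 44358912 counts per library, 3 counts are the floor, which covers counting error only. Motifs were counted in RefSeq promoters and GENCODE 29 transcripts.

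The 10 genes, the pathway lists and the tests were chosen with earlier results of these data known. Named genes were all 10 phosphatases, the 3 genes with the largest change among those called in DdBIC against Ctrl per pathway list, and the genes leading by r, of 5 taken per phosphatase (that of DUSP7 is not reported here). Alternatives were DESeq2 1.42.0, other scalings and filters, the compared groups alone, a replicate block, each library left out and a minimum log2 fold change of 1.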

Additional observations from a re-analysis of the deposited data

Results flagged for a closer look

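In 9 of the 10 MAP kinase phosphatase genes the response to DdBIC was not the same when hemin was present, by edgeR's interaction term. Of all genes tested, 16.6% passed this test in either direction and 10.2% with a value below 0. The log2 effect with hemin minus that without was -2.52 for DUSP1, -2.77 for DUSP2, -0.17 for DUSP4, -1.76 for DUSP5, -1.80 for DUSP6, -0.31 for DUSP7, -3.11 for DUSP8, -1.27 for DUSP10 and -1.05 for DUSP16. Adjusted p was 0.00475 for DUSP4, 0.00297 for DUSP7, 0.00196 for DUSP6 and at most 0.000105 for the other 6 genes. Beside these values stands the mitochondrial share of counts, 2.42% to 2.99% in DdBIC and 3.08% to 3.43% in DdBIC+Hemin, whose part was not tested.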

How the results depend on the processing

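Of 1190 values of the 10 genes under the alternatives, 1164 stayed on their side of the threshold, 26 no longer passed and no called value reversed. Of the 1164, 7 were values past no threshold that changed sign. Of the 26, 15 fell below the added minimum of 1 on the log2 scale, and the other 11 were DUSP4 in Hemin against Ctrl. In that comparison the count of phosphatase genes called, 1, was 0 with upper-quartile scaling, without a low-count filter, with only the groups compared, with the minimum of 1 and with the replicate block, and 0 to 1 with each library left out. The cause was not tested. With the minimum of 1, the 6 genes higher in DdBIC+Hemin became 2 against Hemin and 2 against Ctrl, since the others changed by less. In DdBIC against Ctrl, DdBIC+Hemin against DdBIC alone and the interaction, the count stayed at 9 under every alternative run but that minimum. With that minimum it was 7. The fit of only the groups compared was not run for the interaction, which uses all 4 groups.

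The paired analysis with the replicate block changed no other call among the 10 genes. In their deviations from the group means, same-numbered libraries correlated at -0.05 to 0.08 and others at -0.07 to 0.08, so the numbers were not taken to pair the libraries. Of the 12 libraries, 8 correlated best with their own number, a hint of pairing from the data and not from the design. Over all genes, Hemin against Ctrl called 580 genes, 881 with DESeq2 and 272 to 373 without 1 Ctrl or Hemin library. DdBIC+Hemin against Hemin called 971, 569 with only the groups compared and 612 to 625 without Hemin replicate 1 or 3 or DdBIC+Hemin replicate 1. The minimum of 1 left 502 of 5310 calls in DdBIC against Ctrl, 323 of 4559 in DdBIC+Hemin against DdBIC, 16 of 580, 46 of 971, 82 of 1771 in DdBIC+Hemin against Ctrl and 278 of 2376 in the interaction. In DdBIC against Ctrl, DUSP6 was 2.62-fold higher by CPM and 2.30-fold by TPM, and DUSP16 2.86-fold and 2.64-fold. In DdBIC+Hemin against Ctrl, DUSP4 was 1.13-fold higher by CPM and 1.10-fold by TPM. DUSP8 rests on 54 to 117 counts in the Ctrl and Hemin libraries, which limits its fold change.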
